A study of Mus musculus with 6 samples.

Results

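The 37 cell cycle genes and CDK inhibitors described here were followed in mouse pancreatic islets with and without a Cre transgene that deletes floxed Ssbp3 in beta cells. The members were listed by symbol, matched to the deposited table by Ensembl gene ID, and kept where they had at least 10 counts over the 6 libraries. All 37 of the 56980 gene IDs in the table met that rule. Of these, 36 were among the 18558 genes with enough counts for the test, and Bub1 was not. The members are grouped by role as 9 proliferation and mitosis genes, 8 cyclins, 4 cyclin-dependent kinases (CDKs), 5 CDK inhibitors, 4 genes of restriction point and chromatin control, and 7 genes of DNA replication and nucleotide supply.

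The RNA-seq libraries were made from total RNA of whole islets at 14 weeks of age, 3 from SSBP3F/F controls and 3 from SSBP3F/F; MIP-CreER littermates, called knockout below. Both groups carry the floxed Ssbp3 alleles, and only the knockout group carries MIP-CreER, a tamoxifen-inducible Cre recombinase driven by the mouse insulin promoter. No group carrying MIP-CreER alone was analysed here, so effects of the transgene and of the deletion cannot be told apart. The sources used here do not give tamoxifen dosing or say if a library holds islets of 1 animal or more, so p-values measure only the spread between these libraries, which may be technical. The libraries are numbered 1 to 3 within each group after the columns of the table.

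Cells enter the division cycle when D-type cyclins with CDK4 or CDK6, and then cyclin E with CDK2, phosphorylate the retinoblastoma protein and release E2F factors, which switch on the genes of DNA replication. Cyclin A and cyclin B with CDK1 then drive mitosis, while the Cip/Kip inhibitors (Cdkn1 genes) and the INK4 inhibitors (Cdkn2 genes) restrain the kinases. Adult beta cells divide rarely and depend on cyclin D2 and CDK4 for their expansion, and menin and EZH2 are known there as regulators of CDK inhibitor genes.

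Ssbp3 (ENSMUSG00000061887), the targeted gene, had 65.8, 81.3 and 74.2 CPM in the controls (CPM are counts scaled to a common library size) and 52.2, 58.1 and 57.1 CPM in the knockouts. The groups did not overlap, and the log2 fold change (knockout over control, as throughout) was -0.40 with an adjusted p of 0.0581 by edgeR's quasi-likelihood test. That p ranged from 0.0128 to 0.283 over 17 alternative analyses, 6 of which called the gene. Library totals ran from 14907641 to 225428920 counts, with control 1 and knockout 1 the shallowest of their groups, so that 3 counts equal 0.0135 to 0.194 CPM. Summed beta-cell markers ranged from 187179 to 241792 CPM in controls and from 141032 to 158524 CPM in knockouts, and alpha- and delta-cell markers were present in every library, as the islet label says. Acinar markers of the exocrine pancreas summed to 26665 to 91486 CPM with overlapping groups and 0 of 14 called. Delta-cell and duct marker sums were also lower without overlap (duct with 2 of 6 markers called higher), endothelial and red blood cell sums were higher without overlap, and alpha, immune, plasma cell, stromal and Schwann sums overlapped. Most of the beta-cell sum came from Ins2, Ins1 and Iapp. Of the 8 beta-cell markers, 2 were called lower (Mafa and Ucn3), while Nkx6-1 had means of 331 CPM in controls and 326 CPM in knockouts. Fewer cells of a type and less RNA per cell, of all markers or of a few abundant ones, cannot be told apart in these bulk libraries.

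None of the 36 tested members rose or fell in the knockout islets by edgeR (adjusted p under 0.05, Benjamini-Hochberg over all genes tested), where 7.07% of all genes tested did, 3.72% higher (691 genes) and 3.35% lower (621 genes). With upper-quartile factors that split was 613 higher and 829 lower, and DESeq2 gave 1107 and 987. The background was smaller without control 1 (312 higher, 349 lower), control 2 (295 and 224) or knockout 1 (340 and 270), and without both shallow libraries (76 and 48), so the share of genes called depended on these libraries. DESeq2 called 0 members and limma-voom called 1, Mki67. At an unadjusted p under 0.05 there were 4 members (11.1%), Cdk4, Cdkn1b and Tyms with lower and Rb1 with higher values in the knockouts, against 21.6% of all genes. The CPM of the groups did not overlap for 4 members (11.1%), Ccnb1, Rb1, Cdk4 and Cdkn1b, against 28.0% of all genes. Both shares lay below the background of the whole table, but each rests on 4 members. Low counts also limit the members, as 12 of 37 had a library under 10 counts.

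The members' median log2 fold change was 0.04, beside -0.0016 over all genes, with 22 members above 0 and 14 below. With upper-quartile factors the median of all genes moved to -0.05 and that of the members to -0.02, and without knockout 2 the members' median was -0.09. The 95% interval of the difference stayed within a 2-fold change in either direction for 19 of 36 members, and for 9 of them within 1.5-fold. Over all genes tested, 56.8% had an interval within 2-fold. For the other 17 members the interval reached beyond 2-fold, and 11 of the 37 members had a mean below 1 CPM in both groups. The plot of fold changes shows the widest intervals among the mitosis genes, the mitotic cyclins, Cdk1 and Cdkn2a.

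**Figure D1:**
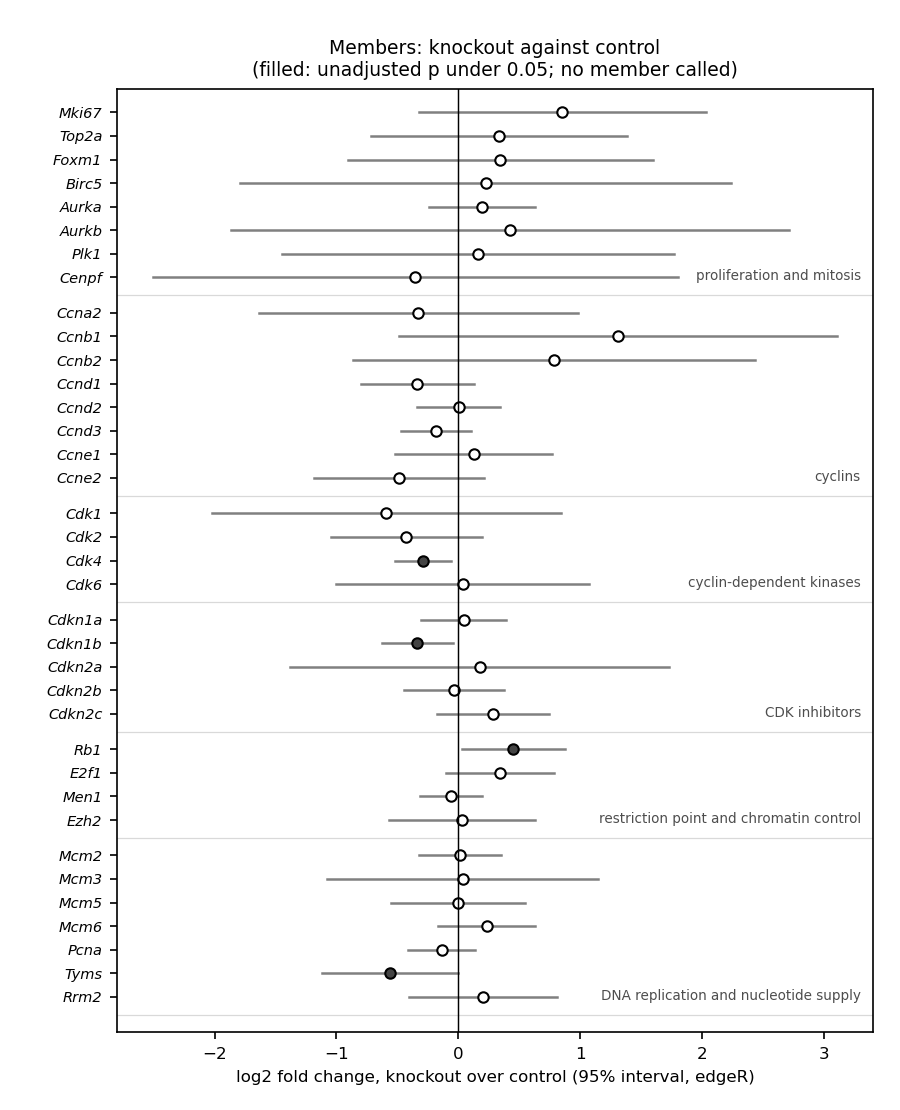
Log2 fold change of each tested member, knockout over control, on the horizontal axis, with its 95% interval from edgeR and members grouped by role on the vertical axis. Filled points mark the 4 members with an unadjusted p under 0.05 (Cdk4, Cdkn1b, Tyms and Rb1), and no member passed the adjusted threshold.

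Among the proliferation and mitosis genes, 8 of 9 were below 2 CPM in every library. Mki67 (ENSMUSG00000031004), which encodes the proliferation marker Ki-67, had 1.69, 0.411 and 0.645 CPM in the controls and 1.16, 1.87 and 1.54 CPM in the knockouts. Knockout 2 was the highest library and control 1 the second, so the groups overlapped. The log2 fold change was 0.85 (SE 0.543, 95% interval -0.32 to 2.03), with an adjusted p of 0.406 by edgeR. Limma-voom gave Mki67 a log2 fold change of 1.39 and an adjusted p of 0.0472, the only one of 17 alternatives to call it, and the adjusted p reached 0.767 at the highest.

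Top2a (ENSMUSG00000020914), the DNA topoisomerase of dividing cells, had 1.13, 1.19 and 0.838 CPM in the controls and 0.517, 1.70 and 1.59 CPM in the knockouts. Knockout 1 was the lowest and the other knockouts the highest of the 6 libraries. The log2 fold change was 0.33 (95% interval -0.72 to 1.38), with an adjusted p of 0.756 by edgeR. Foxm1, a transcription factor of mitotic genes, ranged from 0.336 to 0.929 CPM, and Birc5, which encodes the chromosomal passenger protein survivin, from 0.0498 to 0.517 CPM, both with overlapping groups. Plk1, the mitotic polo kinase, ranged from 0.129 to 0.499 CPM.

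Aurkb, the kinase partner of survivin, had no count in control 1 and at most 0.199 CPM elsewhere. Cenpf, a kinetochore protein, had no count in knockout 1 and at most 0.339 CPM elsewhere. If counts are independent reads, a count of 0 in those shallow libraries allows up to 3 counts, or 0.169 CPM in control 1 and 0.194 CPM in knockout 1. Most nonzero counts were even, and if reads were counted in pairs these limits would be higher. Bub1, the spindle checkpoint kinase that did not enter the test, had 2, 0 and 4 counts in the controls and 0, 16 and 32 counts in the knockouts.

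Aurka, the centrosome and spindle kinase, was the exception in level, with 5.59, 6.43 and 6.85 CPM in the controls and 7.57, 6.45 and 7.73 CPM in the knockouts. All 3 knockouts were above control 2, and the lowest knockout lay below control 3. Its log2 fold change was 0.20 (95% interval -0.24 to 0.63), with an adjusted p of 0.633 by edgeR. Aurka made up most of the summed CPM of the 9 genes, which was 9.85 ± 0.720 in controls and 11.9 ± 1.40 in knockouts (mean ± SD, n = 3 each). The sum did not overlap between groups, but that of the 12 mitotic members below 2 CPM in every library, a set chosen after their values were seen, did. That sum was 8.41, 4.37 and 4.86 CPM in the controls and 5.11, 8.15 and 7.83 CPM in the knockouts.

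**Figure D2:**
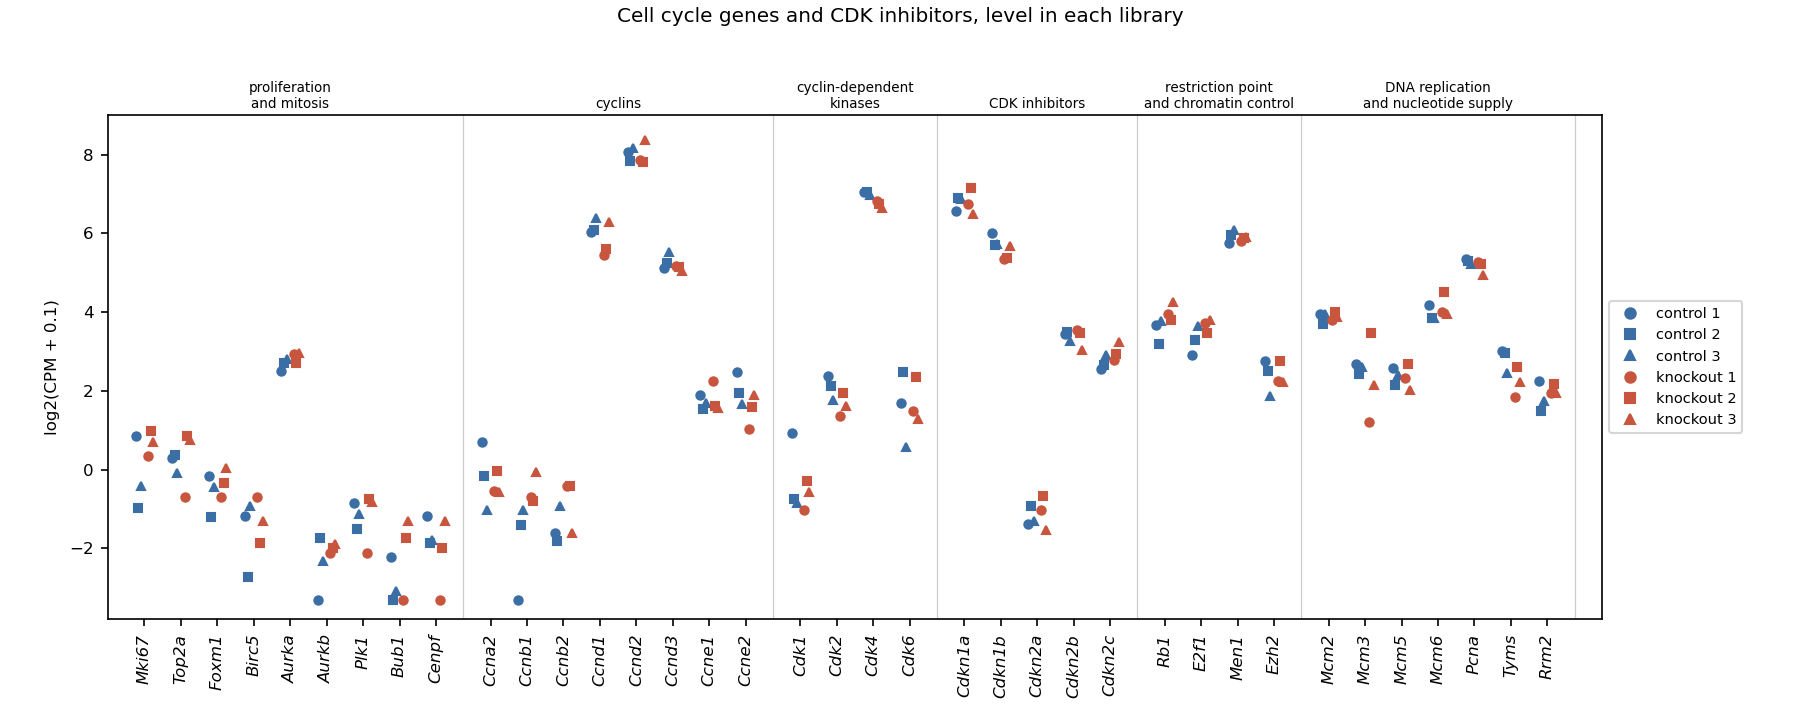
Level of each of the 37 members in each library, as log2(CPM + 0.1), with members on the horizontal axis grouped by role and 1 point per library (color by group, symbol by library number). Ccnd2, Cdk4 and Cdkn1a lie at the top, most mitosis genes lie near or below 1 CPM, and the points of both groups mix for most members.

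Genes of late S phase and mitosis share promoter elements known to bind NF-Y (the CCAAT box) and the DREAM and MuvB complexes (the cell cycle genes homology region, CHR). RefSeq start sites (GRCm38.p6, another build than the one the counts were made on) were available for 30 of 37 members. The 250 bases before the first listed start of each gene were searched on both strands. Ccnd3, Cdkn1a, Cdkn2a and Cdkn2c had 2 listed starts and Men1 had 3, and their later starts were not searched. The letters searched were CCAAT, the CHR letters TTTGAA or TTCGAA, the E2F letters TTTCCCGC, TTTGGCGC or TTTCGCGC, and the SP1 letters GGGCGG, and matches of different motifs could overlap. CCAAT stood in 63.3% of member windows and in 34.5% of the windows of all 27025 genes. The CHR letters stood in 20% and 17.4%, the E2F letters in 16.7% and 1.59%, and the SP1 letters in 76.7% and 32.9%. The 27025 genes outnumber the 18558 tested, so they include genes without enough counts in islets. Shares over tested genes alone, or over windows of like GC content, were not computed.

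Of the 10 windows of mitosis genes, cyclins A and B and Cdk1, 9 held CCAAT and 4 held both CCAAT and the CHR letters. Among the other 20 member windows, 10 held CCAAT and 1 held both, beside 6.21% of all windows with both. The 4 windows with both in the mitotic group were those of Mki67, Top2a, Ccnb2 and Cdk1. The 120 bases before the start are shown 5′ to 3′ for Cdk1 and Top2a, mitotic genes with CCAAT and the CHR letters, for Ccnb1, a mitotic gene with CCAAT but no match to the CHR letters, and for Cdk4, a member without CCAAT. The windows are chr10:69352913-69353032 (minus strand) for Cdk1, chr11:99024190-99024309 (minus strand) for Top2a, chr13:100786487-100786606 (minus strand) for Ccnb1 and chr10:127063415-127063534 (plus strand) for Cdk4. Capitals mark matches to the searched letters on either strand.
Cdk1: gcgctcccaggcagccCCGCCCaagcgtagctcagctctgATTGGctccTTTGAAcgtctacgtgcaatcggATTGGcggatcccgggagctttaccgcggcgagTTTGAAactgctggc
Top2a: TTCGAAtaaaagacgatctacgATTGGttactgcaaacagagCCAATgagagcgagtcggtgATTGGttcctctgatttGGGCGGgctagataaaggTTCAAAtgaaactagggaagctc
Ccnb1: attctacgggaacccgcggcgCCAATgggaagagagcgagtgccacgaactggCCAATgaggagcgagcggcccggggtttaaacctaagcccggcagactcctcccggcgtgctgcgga
Cdk4: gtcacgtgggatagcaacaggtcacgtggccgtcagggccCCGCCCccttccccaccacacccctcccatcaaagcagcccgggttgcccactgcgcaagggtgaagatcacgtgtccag

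The first 3 genes each hold at least 2 CCAAT matches in the printed bases, and Cdk1 and Top2a each hold 2 matches to the CHR letters. In Cdk4 the only capitals are a match to the SP1 letters. The matches are a description of these letters and not of binding.

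The D-type cyclins carried most of the cyclin reads. Ccnd2 (ENSMUSG00000000184), the cyclin D2 gene, had 267, 231 and 288 CPM in the controls and 234, 224 and 329 CPM in the knockouts. Knockout 3 was the highest and knockout 2 the lowest of all libraries, so the controls lay inside the range of the knockouts. The log2 fold change was 0.00 (SE 0.156, 95% interval -0.34 to 0.34), with an adjusted p of 0.997 by edgeR.

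Ccnd1 (ENSMUSG00000070348), the cyclin D1 gene, had 65.2, 67.4 and 83.1 CPM in the controls and 43.3, 48.6 and 78.4 CPM in the knockouts. Knockouts 1 and 2 were below all controls, and knockout 3 was above controls 1 and 2. The log2 fold change was -0.34 (SE 0.207, 95% interval -0.80 to 0.12), with an adjusted p of 0.397 by edgeR. Without knockout 3 it was -0.65 with an adjusted p of 0.0114, the only alternative of 17 that called Ccnd1, and the adjusted p reached 0.693 at the highest. Ccnd3, the cyclin D3 gene, had 34.5, 37.9 and 45.6 CPM in the controls and 36.1, 35.0 and 33.0 CPM in the knockouts, which overlapped (adjusted p = 0.459, edgeR).

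Levels of different genes were compared as CPM per kilobase of exon, with the exons of all annotated transcripts of a gene merged. The merged length was 9.409 kb for Ccnd2, 4.709 kb for Ccnd1 and 8.775 kb for Ccnd3. It can exceed the length of the transcripts in islets, so orders between genes hold for this scale only. On it, Ccnd2 ranged from 23.8 to 34.9, Ccnd1 from 9.20 to 17.6 and Ccnd3 from 3.76 to 5.20 CPM per kb over the 6 libraries. These 3 ranges did not overlap, so the order of the D-type cyclins on this scale was the same in every library. The cyclin E genes lay lower, Ccne1 at 1.05 to 1.75 and Ccne2 at 0.555 to 1.57 CPM per kb, with overlapping ranges. Their log2 fold changes were 0.12 for Ccne1 and -0.49 for Ccne2, with adjusted p-values of 0.859 and 0.422 by edgeR.

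The mitotic cyclins were near the limit of detection. Ccnb1 (ENSMUSG00000041431), the cyclin B1 gene, had no count in control 1, 0.274 CPM in control 2 and 0.388 CPM in control 3, and 0.517, 0.474 and 0.853 CPM in the knockouts. Every knockout was above every control, but the log2 fold change of 1.31 had a 95% interval from -0.48 to 3.10 and an adjusted p of 0.402 by edgeR. Ccnb2, the cyclin B2 gene, had 0.226, 0.187 and 0.424 CPM in the controls and 0.647, 0.649 and 0.227 CPM in the knockouts, with knockout 3 among the controls. Ccna2, the cyclin A2 gene, ranged from 0.388 to 1.52 CPM with control 1 the highest, and its log2 fold change of -0.33 became 0.22 without that library.

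Cdk4 (ENSMUSG00000006728), the kinase partner of the D-type cyclins, had 132, 132 and 126 CPM in the controls and 112, 108 and 99.1 CPM in the knockouts. All knockouts were below all controls, at 106 ± 6.69 against 130.1 ± 3.51 CPM (mean ± SD, n = 3 each). The difference, as log2 fold change, was -0.29 (SE 0.106, 95% interval -0.52 to -0.06), with an unadjusted p of 0.0178 and an adjusted p of 0.127 by edgeR, the lowest adjusted p among the members. Over the 17 alternatives the adjusted p ranged from 0.0713 to 0.357, so none of them called Cdk4. Groups without overlap were also found for 28.0% of all genes tested.

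Cdk1 (ENSMUSG00000019942), the mitotic kinase, had 1.81, 0.498 and 0.460 CPM in the controls and 0.388, 0.724 and 0.569 CPM in the knockouts. Control 1 was more than 2-fold above every other library. On the log2 scale the fold change was -0.59 (95% interval -2.02 to 0.84, adjusted p = 0.670 by edgeR), and without control 1 it was 0.27. Cdk2, the partner of cyclins E and A, had 5.08, 4.23 and 3.29 CPM in the controls and 2.46, 3.77 and 2.95 CPM in the knockouts, with an adjusted p of 0.432. Cdk6, the other partner of D-type cyclins, ranged from 1.38 to 5.45 CPM in the controls and from 2.32 to 5.04 CPM in the knockouts, and its interval of -1.0 to 1.07 on the log2 scale allowed a 2-fold difference either way.

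Per kilobase, Cdk4 stood at 30.5 to 40.8 CPM per kb and Cdk2 at 0.395 to 0.817 CPM per kb. Cdk6 ranged from 0.0989 to 0.390 and Cdk1 from 0.0786 to 0.366 CPM per kb, and those ranges overlapped with each other and not with that of Cdk2. The summed CPM of the 4 kinases, nearly all of it Cdk4, was 138 ± 6.37 in controls and 113 ± 7.36 in knockouts.

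Cdkn1a (ENSMUSG00000023067), which encodes the p53-responsive inhibitor p21, had 94.9, 119 and 117 CPM in the controls and 108, 143 and 89.4 CPM in the knockouts. Both the highest and the lowest library were knockouts, and the log2 fold change was 0.04 (SE 0.162, 95% interval -0.31 to 0.39, adjusted p = 0.917 by edgeR). Cdkn1b (ENSMUSG00000003031), which encodes p27, had 64.7, 52.2 and 52.7 CPM in the controls and 40.9, 41.5 and 51.5 CPM in the knockouts. The groups did not overlap, although knockout 3 lay just below control 2. The log2 fold change of Cdkn1b was -0.34 (SE 0.135, 95% interval -0.63 to -0.04), with an unadjusted p of 0.0281 and an adjusted p of 0.168 by edgeR. Over the alternatives its adjusted p ranged from 0.0625 to 0.604.

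Cdkn2a (ENSMUSG00000044303), the locus of p16 and p19Arf, had 0.282, 0.423 and 0.307 CPM in the controls and 0.388, 0.524 and 0.246 CPM in the knockouts. Counts per gene cannot separate its products, and the groups overlapped, with knockout 2 highest and knockout 3 lowest. The difference, as log2 fold change, was 0.17 (95% interval -1.38 to 1.73, adjusted p = 0.924 by edgeR), so a difference of 2-fold was not detectable at this depth. Cdkn2b, which encodes p15, had 10.7, 11.2 and 9.51 CPM in the controls and 11.6, 11.0 and 8.16 CPM in the knockouts, with an interval of -0.45 to 0.37 on the log2 scale. Cdkn2c, which encodes p18, had 5.76, 6.20 and 7.47 CPM in the controls and 6.72, 7.53 and 9.42 CPM in the knockouts, with an interval of -0.17 to 0.74.

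The inhibitors kept a fixed order per kilobase of merged exon in every library. Cdkn1a ranged from 25.2 to 40.3, Cdkn1b from 8.98 to 14.2 and Cdkn2b from 5.87 to 8.33 CPM per kb. Cdkn2c followed at 2.14 to 3.51 and Cdkn2a at 0.210 to 0.447 CPM per kb. No ranges of neighbours in this order overlapped. Their summed CPM overlapped between groups, at 184 ± 6.69 in controls and 177 ± 23.9 in knockouts.

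**Figure D3:**
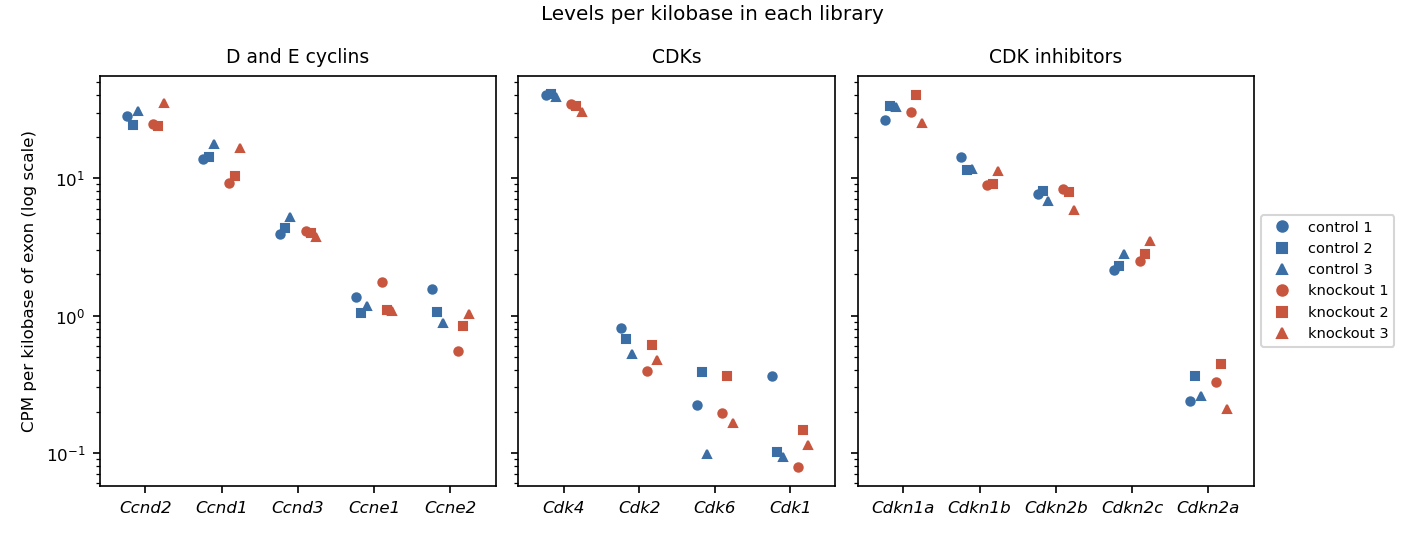
CPM per kilobase of exon (log scale) of cyclins, CDKs and CDK inhibitors, 1 point per library, by group and library number. Ccnd2, Cdk4 and Cdkn1a were the highest of their classes in every library, and the 5 inhibitors lie in separate bands.

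Rb1 (ENSMUSG00000022105), which encodes the retinoblastoma protein, had 12.8, 9.01 and 13.6 CPM in the controls and 15.3, 13.9 and 19.0 CPM in the knockouts. All knockouts were above all controls, with knockout 2 just above control 3. On the log2 scale the fold change was 0.45 (SE 0.196, 95% interval 0.03 to 0.88), with an unadjusted p of 0.0387 and an adjusted p of 0.200 by edgeR, which ranged from 0.0828 to 0.564 over the alternatives. E2f1, the activating E2F factor that this protein binds, had 7.45, 9.67 and 12.4 CPM in the controls and 13.1, 11.0 and 13.7 CPM in the knockouts, overlapping at control 3 (adjusted p = 0.378).

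Men1, which encodes menin, had 53.7, 61.9 and 67.2 CPM in the controls and 55.6, 59.2 and 60.4 CPM in the knockouts, all inside the range of the controls. Its log2 fold change was -0.06, with an interval of -0.32 to 0.19. Ezh2 (ENSMUSG00000029687), the Polycomb methyltransferase, had 6.66, 5.59 and 3.57 CPM in the controls and 4.66, 6.61 and 4.61 CPM in the knockouts, again inside the range of the controls. Its log2 fold change was 0.03 (SE 0.276, 95% interval -0.57 to 0.63, adjusted p = 0.965 by edgeR).

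The replication members were measured at 2.20 to 40.4 CPM. Tyms (ENSMUSG00000025747), thymidylate synthase, had 8.01, 7.75 and 5.40 CPM in the controls and 3.49, 5.99 and 4.57 CPM in the knockouts. Control 3 lay below knockout 2, so the groups overlapped. The difference, as log2 fold change, was -0.56 (SE 0.256, 95% interval -1.12 to -0.01), with an unadjusted p of 0.0474 and an adjusted p of 0.224 by edgeR, which ranged from 0.137 to 0.588 over the alternatives.

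Pcna, the sliding clamp of DNA polymerases, had 40.4, 39.4 and 37.5 CPM in the controls and 38.8, 37.3 and 30.6 CPM in the knockouts. Rrm2, the ribonucleotide reductase subunit that is made in S phase, had 4.63, 2.69 and 3.26 CPM in the controls and 3.75, 4.44 and 3.77 CPM in the knockouts. Both genes overlapped between groups, with log2 fold changes of -0.14 and 0.20 and adjusted p-values of 0.590 and 0.739 by edgeR.

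Of the helicase subunits, Mcm2 had a log2 fold change of 0.01, Mcm3 of 0.04, Mcm5 of -0.00 and Mcm6 of 0.23, none of which passed the test. Mcm3 had 6.32, 5.33 and 5.95 CPM in the controls but 2.20, 11.0 and 4.35 CPM in the knockouts. Knockout 2 was the highest and knockout 1 the lowest of all libraries, and without knockout 2 the log2 fold change of Mcm3 was -0.78. Mcm6 was also highest in knockout 2, at 22.7 CPM against 14.2 to 17.9 CPM in the other libraries. Knockout 2 was the highest library for 10 of the 36 tested members, as was control 1, while acinar and red blood cell markers were also highest in knockout 2, at 91486 and 613 CPM. The part of red blood cells in the members' values was not tested. With the acinar covariate 0 members were called, as without it, so that count does not bear on the part of acinar cells. The log2 fold change of Mcm3 was -0.16 under that covariate.

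The members were set beside 153 other genes of the cell cycle from wider lists, of which 148 were tested. Of these, 7 rose and 3 fell (6.76%), close to the 7.07% of all genes, and the groups did not overlap for 29.1%, beside 28.0%. Their median log2 fold change was 0.09. Without the shallowest library of each group, 1 of the 10 called genes, Racgap1, passed the test. By list, 0 of 43 DNA replication genes, 4 of 46 mitosis genes, 4 of 30 genes of G1 control, 1 of 13 menin complex and Polycomb genes and 1 of 16 p53 genes were called. In that order, the groups did not overlap for 25.6%, 23.9%, 53.3%, 23.1% and 12.5% of the tested genes. Log2 fold changes above and below 0 numbered 33 and 13 for mitosis (median 0.37) and 20 and 10 for G1 control (median 0.12). They numbered 11 and 2 for menin and Polycomb genes and 10 and 6 for p53 genes. Low counts limit the mitosis list. Of its 50 genes, 26 had a mean below 1 CPM in both groups, and 26 had a library under 10 counts. The interval of the difference reached beyond 2-fold for 34 of its 46 tested genes. At an unadjusted p under 0.05 by edgeR there were 9, 6 higher and 3 lower. Its signs and median therefore do not establish a shift of mitosis genes.

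The replication list gave 7 genes (16.3%) at an unadjusted p under 0.05, 2 higher and 5 lower, a smaller share than the 21.6% of all genes. Of its 43 genes, 15 had a log2 fold change above 0 and 28 below, with a median of -0.14, where 49.8% of all genes tested lay above 0. The smallest p belonged to Rpa3, the small subunit of replication protein A, at 9.76, 7.32 and 5.91 CPM in the controls and 4.78, 4.77 and 3.84 CPM in the knockouts. Its log2 fold change was -0.77 with an adjusted p of 0.0754 by edgeR, while DESeq2 gave 0.0308 and leaving out control 3 gave 0.0494. Orc6, of the origin recognition complex, had 13.7, 9.97 and 9.29 CPM against 7.24, 7.85 and 6.38 CPM, with a log2 fold change of -0.61 and an adjusted p of 0.0951. DESeq2 called 1 of these genes, Rpa3, and limma-voom called neither.

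**Figure D4:**
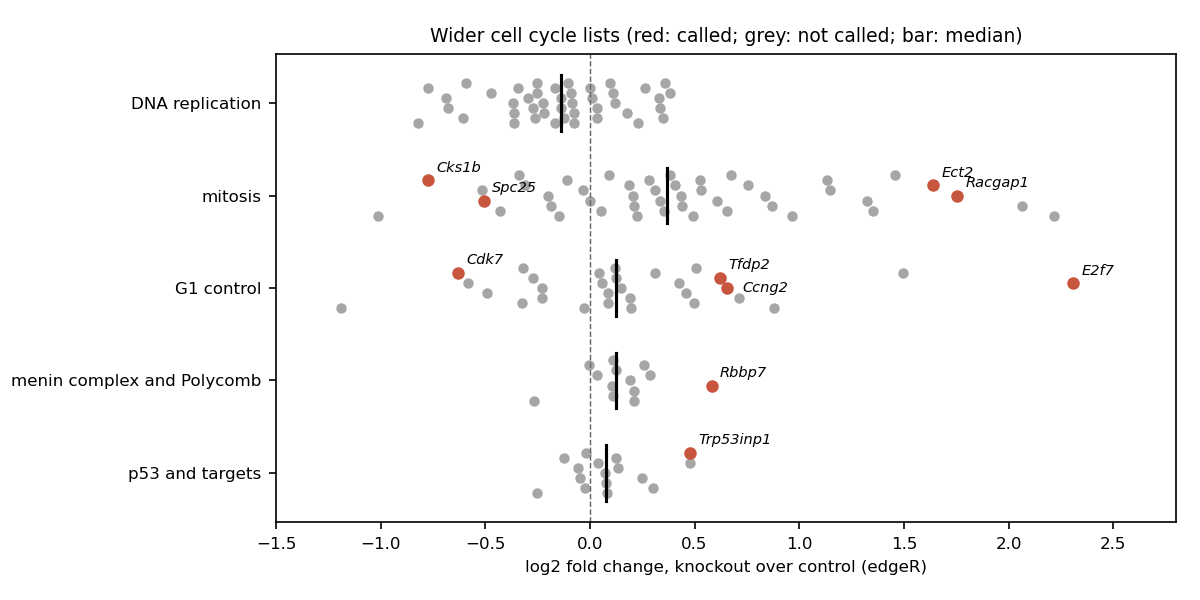
Log2 fold change of the tested genes of 5 wider cell cycle lists, knockout over control, with 1 point per gene, called genes in red and named, and a bar at the median of each list. The called genes lie on both sides of 0, and the replication list holds none.

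Among mitosis genes, 2 rose, both of the centralspindlin and RhoA pathway of cytokinesis. Racgap1 (ENSMUSG00000023015), a subunit of centralspindlin, had 5.08, 8.44 and 10.3 CPM in the controls and 35.0, 23.1 and 24.4 CPM in the knockouts. The lowest knockout was more than 2-fold above the highest control. On the log2 scale the fold change was 1.75 (SE 0.245), with an adjusted p of 0.00175 by edgeR, and all 17 alternatives called it. Ect2 (ENSMUSG00000027699), the RhoA exchange factor that centralspindlin recruits, had 0.564, 0.448 and 0.712 CPM in the controls and 2.20, 1.65 and 1.63 CPM in the knockouts. The estimated log2 fold change was 1.64 (SE 0.438) with an adjusted p of 0.0413, which lay between 0.0600 and 0.180 when any single library was left out. Kif23, the kinesin of the same complex, had 0.339, 0.672 and 0.559 CPM in the controls and 0.517, 0.874 and 0.711 CPM in the knockouts, which overlapped (log2 fold change 0.41, adjusted p = 0.738).

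Marker sums of immune and endothelial cells are given beside Racgap1 and Ect2. Immune markers ranged from 73.7 to 111 CPM in controls and from 75.1 to 147 CPM in knockouts, with overlap and 0 of 10 markers called. Endothelial markers ranged from 196 to 220 CPM in controls and from 224 to 283 CPM in knockouts, without overlap and with 1 of 6 markers called higher. With the immune markers as a covariate, Racgap1 was called, and Ect2 was not (adjusted p = 0.0685 by edgeR) at a log2 fold change of 1.56, close to that without the covariate. The part of endothelial cells was not tested. The 120 bases before the first listed start are shown for Racgap1 and Ect2, the mitotic genes that rose. Ect2 had 2 listed starts, and its later start was not searched. The windows are chr15:99651657-99651776 (minus strand) for Racgap1 and chr3:27153879-27153998 (minus strand) for Ect2, capitals as above.
Racgap1: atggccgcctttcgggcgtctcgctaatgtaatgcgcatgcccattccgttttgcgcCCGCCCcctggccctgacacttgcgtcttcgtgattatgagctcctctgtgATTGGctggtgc
Ect2: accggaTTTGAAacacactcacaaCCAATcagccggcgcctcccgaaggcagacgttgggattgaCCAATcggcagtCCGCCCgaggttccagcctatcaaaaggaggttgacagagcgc

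The printed bases of Ect2 hold 2 CCAAT matches and 1 match to the CHR letters, and those of Racgap1 hold 1 CCAAT match and none to the CHR letters.

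The mitosis genes that fell were Cks1b and Spc25. Cks1b (ENSMUSG00000028044), a small CDK-binding protein that helps SCF-SKP2 recognise p27, had 19.8, 22.9 and 18.8 CPM in the controls and 10.3, 13.7 and 11.7 CPM in the knockouts. Its difference on the log2 scale was -0.78 (SE 0.163), with an adjusted p of 0.0143 by edgeR. The call was lost without control 2 (adjusted p = 0.0858) and without knockout 1 (0.0595).

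Spc25 (ENSMUSG00000005233), of the NDC80 kinetochore complex, had 149, 122 and 165 CPM in the controls and 97.3, 102 and 106 CPM in the knockouts. The estimated log2 fold change was -0.51 (SE 0.125, adjusted p = 0.0289 by edgeR), and the call was lost without control 1 (0.0990), control 3 (0.0835), knockout 1 (0.118) or knockout 2 (0.0848). At 30.5 to 51.6 CPM per kb, Spc25 stood far above its complex partners Ndc80, at 0.0555 to 0.330, and Nuf2, at 0.0284 to 0.102 CPM per kb. Spc25 lies directly beside G6pc2 on chromosome 2 in RefSeq, on the opposite strand and without overlap. G6pc2, a glucose-6-phosphatase gene of beta cells, had 1431, 1327 and 1899 CPM in the controls and 601, 606 and 798 CPM in the knockouts, with a log2 fold change of -1.22 (adjusted p = 0.00175). The sources used here do not say if counting used strand, so reads of the neighbouring genes may not be separable.

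In G1 control, 3 genes rose and 1 fell. E2f7 (ENSMUSG00000020185), a repressor among the E2F factors, had 0.339, 0.946 and 0.969 CPM in the controls and 6.08, 2.63 and 3.43 CPM in the knockouts. Every knockout was more than 2-fold above every control, and the log2 fold change was 2.31 (SE 0.443, adjusted p = 0.00883 by edgeR). Its close relative E2f8 had too few counts for the test. Tfdp2 (ENSMUSG00000032411), a dimerisation partner of E2F factors, had 14.3, 12.4 and 14.0 CPM in the controls and 21.1, 19.1 and 22.4 CPM in the knockouts. Its difference on the log2 scale was 0.62 (adjusted p = 0.0254), and the call was lost without control 1 (0.0608), control 2 (0.132), knockout 1 (0.0730) or knockout 3 (0.0664).

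Ccng2 (ENSMUSG00000029385), the gene of cyclin G2, which is linked to cell cycle arrest, had 13.2, 10.8 and 10.8 CPM in the controls and 21.5, 16.1 and 17.1 CPM in the knockouts. The estimated log2 fold change was 0.66 (adjusted p = 0.0359 by edgeR), and the call was lost without control 1 (0.0535), control 2 (0.149), control 3 (0.0868) or knockout 1 (0.122).

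Cdk7 (ENSMUSG00000069089), the kinase that activates other CDKs, was the gene that fell, with 27.8, 27.5 and 24.4 CPM in the controls and 16.3, 18.6 and 16.5 CPM in the knockouts. Its difference on the log2 scale was -0.63 (SE 0.138, adjusted p = 0.0171 by edgeR), and the call was lost without control 1 (0.0649), control 2 (0.0889) or knockout 1 (0.0644). Its partners in the CDK-activating complex were not called, Ccnh at a log2 fold change of -0.27 (adjusted p = 0.228) and Mnat1 at -0.23 (adjusted p = 0.403).

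In the menin and Polycomb list, Rbbp7 (ENSMUSG00000031353), a histone-binding subunit of Polycomb and deacetylase complexes, rose. It had 167, 167 and 158 CPM in the controls and 263, 243 and 232 CPM in the knockouts, with a log2 fold change of 0.58 (adjusted p = 0.00807 by edgeR). Among the p53 genes, Trp53inp1 (ENSMUSG00000028211), a p53-induced stress response gene, rose from 33.2, 32.9 and 28.3 CPM in the controls to 39.2, 44.0 and 48.1 CPM in the knockouts. The estimated log2 fold change was 0.48 (adjusted p = 0.0417 by edgeR), and the adjusted p lay between 0.0587 and 0.115 when any single library was left out.

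**Figure D5:**
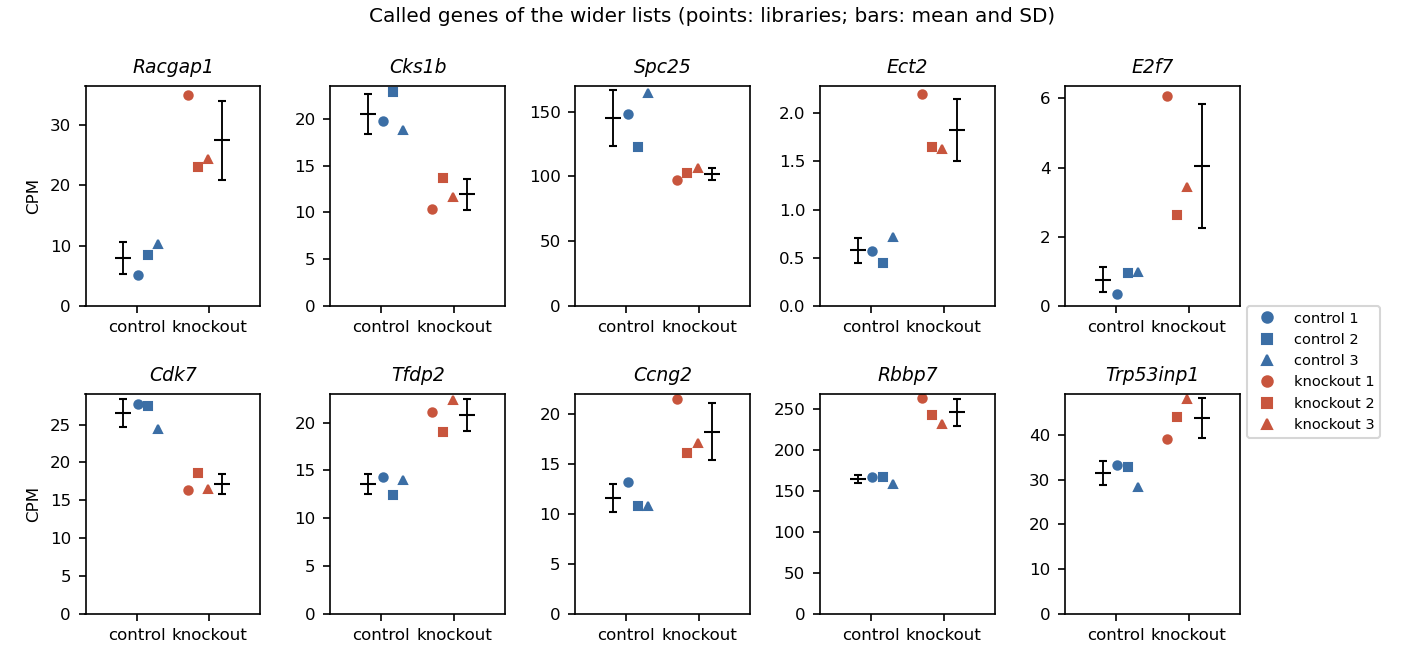
CPM in each library (points) with group mean and SD (bars) for the 10 called genes of the wider lists, each on its own linear axis from 0. Controls and knockouts do not overlap for any of the 10 genes, and Racgap1 and E2f7 show the widest separation in fold.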

How the data were processed

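Per the labels, whole-islet total RNA from 3 SSBP3F/F and 3 SSBP3F/F; MIP-CreER mice or pools was sequenced. The submitters' processing notes list STAR 2.7.3a, featureCounts, Trim Galore 0.6.7 and FastQC 0.11.9, and the genome builds GRCm39 and mm39. Annotation release, strand setting and the handling of read pairs were not found in those notes or the labels. Raw counts for 56980 Ensembl gene IDs (52073 with a symbol) were deposited by the authors. Even numbers made up 62.3% to 73.2% of each library's nonzero counts. Columns name a group and a number, not a sample title.

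Genes passing edgeR's filterByExpr (18558) were fitted with edgeR 4.0.16 (TMM scaling, robust quasi-likelihood test) in R 4.3.3, with Benjamini-Hochberg adjustment over all of them and a threshold of 0.05. The script was run on simulated counts with known fold changes, and the recovery is not given here. Those counts were drawn independently for each library, so they do not bear on how far calls depended on single libraries. CPM uses TMM-scaled library sizes, and levels between genes use kilobases of exon from GENCODE (GRCm38), lengths only. The exons of all annotated transcripts of a gene were merged for this length. Promoter windows are from RefSeq (GRCm38.p6), for the first listed start of each gene. The 17 alternatives changed the normalization, filter, library size or test (DESeq2 1.42.0, limma-voom 3.58.1), added an acinar or immune marker covariate or length and GC offsets (97.6% of genes had both), or left out libraries. No batch is given in the labels.

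The members and lists were chosen with earlier results of these data known. All members are named; from each wider list up to 4 called genes with the smallest p are named, or 2 where none was called. Partner genes Kif23, Ndc80, Nuf2, Ccnh and Mnat1, the relative E2f8 and the neighbour G6pc2 were added after values were seen. 1 listed gene, Lin54, was not matched.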

Additional observations from a re-analysis of the deposited data

How the results depend on the processing

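Of the 17 alternatives, 15 called 0 members, with 26 members tested under the filter of 1 CPM and 36 or 37 in the others. The remaining alternatives called 1 (Mki67, higher, by limma-voom) and 1 (Ccnd1, lower, without knockout 3). Leaving out single libraries gave 0 to 0 members called higher and 0 to 1 lower. Low counts limit the mitosis genes, mitotic cyclins, Cdk1 and Cdkn2a, and 12 of these members had a library under 10 counts. No paired analysis was possible because the titles of the groups share only the number 2 and the columns of the table carry a group but no title. The cause of the changes below was not tested.

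All genes called numbered 1107 higher and 987 lower by DESeq2, 1079 and 955 with the acinar covariate, 76 and 48 without the shallowest library of each group, and 295 to 719 higher and 224 to 590 lower without single libraries. Wider cell cycle genes called numbered 1 higher and 0 lower without both shallow libraries, and 3 to 5 higher and 0 to 3 lower without single libraries. Spc25 (adjusted p = 0.0511) and Ccng2 (0.0649) were not called with the immune covariate, Ccng2 (0.0522) and Trp53inp1 (0.0588) with upper-quartile factors, and Tfdp2 (0.0650) with length and GC offsets, all by edgeR. Without both shallow libraries the adjusted p by edgeR was 0.0904 for E2f7, 0.138 for Rbbp7 and 0.105 for G6pc2.

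With library sizes that exclude insulin and acinar genes, the summed CPM in controls and knockouts was 12.5 and 15.1 for proliferation and mitosis, 483 and 459 for cyclins, 175 and 144 for CDKs, 233 and 224 for CDK inhibitors, 111 and 117 for restriction point and chromatin control, and 115 and 111 for replication. The main sums of those last 2 roles were 87.9 and 92.3, and 90.7 and 87.8 CPM.

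Log2 fold changes that changed sign, none of them called, were as follows. Mcm5 was 0.0026 with DESeq2's size factors, 0.0051 by DESeq2, 0.0018 without insulin and acinar genes in the library sizes and 0.00099 without the filter. With upper-quartile factors Ccnd2 was -0.051, Cdk6 -0.018, Cdkn1a -0.0036, Ezh2 -0.022, Mcm2 -0.039 and Mcm3 -0.016. Ccnd2 was -0.0079 with the filter of 1 CPM. By limma-voom Ccna2 was 0.38, Ccnd2 -0.0073, Ccne1 -0.0020 and Cdk1 0.21. With the acinar covariate Cdkn1a was -0.00044 and Mcm3 -0.16. With length and GC offsets Ccnd2 was -0.14, Cdk6 -0.11, Cdkn2b 0.056, Ezh2 -0.070 and Mcm2 -0.093. Without both shallow libraries Birc5 was -0.031, Cenpf 0.32, Ccna2 0.31, Ccne1 -0.019, Cdk1 0.43, Cdkn1a -0.017 and Mcm5 0.12. Without single libraries the ranges that crossed 0 were -0.29 to 0.90 for Birc5, -0.099 to 0.48 for Plk1, -1.23 to 0.035 for Cenpf, -0.72 to 0.22 for Ccna2, -0.20 to 0.11 for Ccnd2, -0.11 to 0.25 for Ccne1, -0.94 to 0.27 for Cdk1, -0.40 to 0.65 for Cdk6, -0.16 to 0.19 for Cdkn1a, -0.15 to 0.44 for Cdkn2a, -0.12 to 0.11 for Cdkn2b, -0.15 to 0.022 for Men1, -0.19 to 0.22 for Ezh2, -0.066 to 0.062 for Mcm2, -0.78 to 0.39 for Mcm3 and -0.21 to 0.16 for Mcm5.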
